A study of Homo sapiens with 6 samples.

Results

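Transforming growth factor beta (TGF-beta) ligands, receptors and SMAD transducers were examined as a family of 10 genes in A375 melanoma cells with and without an NRAS mutation. The members are the rows of the expression table whose symbols are TGFB1 to TGFB3, TGFBR1 to TGFBR3, SMAD1 to SMAD9 or ACVR1C. The table holds 770 genes, and of these symbols TGFB1, TGFB2, TGFBR2, ACVR1C, SMAD1, SMAD2, SMAD3, SMAD4, SMAD5 and SMAD9 were measured. A375 is an established human melanoma line that carries BRAF V600E in both groups. The wild-type group, labelled A375-BRAFV600E/NRASQ61, is the line CRL-1619-LUC2, and the mutant group, labelled A375-BRAFV600E/NRASQ61K, is CRL-1619IG-2-LUC2, which also carries NRAS Q61K. Both names include a LUC2 luciferase tag, neither line was treated, and each gave 3 total RNA samples that were read on the nCounter PanCancer Progression panel, which counts fluorescent barcodes hybridized to RNA without amplification. The labels do not say whether the mutant line is a single clone or whether the 3 samples came from separate cultures, so p-values measure the spread between these samples, which may be technical.

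TGF-beta ligands are secreted in a latent form, and once activated they bind a type II receptor, which recruits and phosphorylates a type I receptor. The type I receptor phosphorylates SMAD2 and SMAD3, while the related bone morphogenetic protein receptors phosphorylate SMAD1, SMAD5 and SMAD9. Both groups join the common partner SMAD4 and move to the nucleus. In normal melanocytes the pathway restrains growth, whereas melanoma cells often secrete the ligands and escape that restraint. The values below are transcript levels and hold no measure of ligand activation or SMAD phosphorylation.

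Gene values before scaling between samples, with background already taken off, summed to 1224129 to 1264653 in the wild-type line and 1158485 to 1189592 in the mutant line. The raw depth is not known, because the whole part of that background cannot be read. Samples of one line correlated at 0.996 or above across the tested genes (Pearson's r of log2 values), and samples of different lines at 0.815 or below. A gene was tested when its mean over all samples lay above a detection floor of 129.7, and 454 of 740 endogenous genes passed. The floor was the mean plus 2 SD of the negative control probes' deposited values over all samples, set once for both lines. Whether those control values were scaled between samples like the genes was not checked. Of 5 measured melanoma markers 4 were above the floor in wild-type and 5 in mutant samples, while MLANA, PMEL, TYR, DCT, MITF, SOX10 and S100B were not among the rows used here. NRAS and BRAF were not analysed here, so the genotypes were not checked against their own transcripts.

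Both ligands and the type II receptor kept their calls under every scaling tried, so the 250 bases upstream of their transcription starts are shown as the DNA that precedes them. The sequences are RefSeq's for GRCh38.p14, written 5′ to 3′ along the gene, and TGFBR2 has 2 listed starts, of which the first is shown, because the stretch before the other lies downstream of it and can be transcribed. Capitals mark matches on either strand to the TATA box as TATAAA, the GC box as GGGCGG, the AP-1 site as TGANTCA, the core of the cyclic AMP response element as TGACGT, the E-box as CACGTG, the SMAD box as CAGAC, and the CCAAT box.
TGFB1, chr19:41353923-41354172, minus strand: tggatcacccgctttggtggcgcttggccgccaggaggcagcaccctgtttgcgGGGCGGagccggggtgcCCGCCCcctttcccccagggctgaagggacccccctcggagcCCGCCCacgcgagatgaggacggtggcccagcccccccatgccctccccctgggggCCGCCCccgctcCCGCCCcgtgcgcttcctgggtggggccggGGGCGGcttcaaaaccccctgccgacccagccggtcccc
TGFB2, chr1:218345086-218345335, plus strand: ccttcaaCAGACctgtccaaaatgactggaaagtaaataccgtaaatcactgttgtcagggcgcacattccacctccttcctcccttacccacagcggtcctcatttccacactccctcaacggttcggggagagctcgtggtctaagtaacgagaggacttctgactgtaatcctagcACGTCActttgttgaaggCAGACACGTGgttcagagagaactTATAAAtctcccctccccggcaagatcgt
TGFBR2, chr3:30606106-30606355, plus strand: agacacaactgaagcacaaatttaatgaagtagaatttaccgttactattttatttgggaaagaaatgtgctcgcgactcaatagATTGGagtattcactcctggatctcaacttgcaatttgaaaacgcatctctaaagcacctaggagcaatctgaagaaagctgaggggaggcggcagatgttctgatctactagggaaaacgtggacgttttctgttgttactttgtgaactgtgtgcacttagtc
The upstream stretches of both ligands differ in composition. That of TGFB1 has 76.8% G and C and 6 GC boxes, with no match to the other motifs. That of TGFB2 has 50.4% G and C, no GC box, a TATA box that begins 29 bases before the start, an E-box that overlaps a SMAD box, a second SMAD box and 1 response element core. The TGFBR2 stretch shown has 40.8% G and C, no GC box and 1 CCAAT box, read on the opposite strand. The stretch before the other listed start of TGFBR2 has 2 GC boxes and 1 CCAAT box. Among all 35116 upstream stretches of this length in the table, whose median G and C content is 58%, a GC box occurs in 42.6%, a TATA box in 10.7%, an E-box in 6.35%, a SMAD box in 38%, a CCAAT box in 32.0%, a response element core in 7.10% and an AP-1 site in 6.57%. All 10 members were found in the promoter table. A match describes the letters and not a bound factor.

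The ligand genes moved in opposite directions. TGFB1, which encodes the most widely expressed ligand of the family, read 1527, 1527 and 1533 normalized counts in the wild-type samples and 2897, 2957 and 2871 in the mutant samples. Every mutant sample was higher than every wild-type sample, and the spread within each line was small. The means were 1529 ± 3.28 and 2908 ± 44.0 (SD, n = 3 each), a rise of 0.93 on the log2(value + 1) scale (SE 0.027, 95% interval 0.86 to 0.99) or 1.90-fold (limma, adjusted p = 4.01e-07). Of the tested panel genes, 79.3% had a smaller fitted log2 difference than TGFB1.

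TGFB2 encodes a second ligand, which binds receptors well only with help from the co-receptor betaglycan. Its values were 171.5, 209 and 172 normalized counts in the wild-type samples and 110.1, 104 and 106 in the mutant samples. The lines did not overlap, and all 3 mutant values lay below the floor. The means were 184 ± 21.8 and 107 ± 3.07 (SD, n = 3 each). TGFB2 was at least 1.42-fold lower in NRAS Q61K cells at this floor, as the wild-type mean over the floor. The p-value belongs to the fitted log2 difference of -0.78, which uses the mutant counts under the floor (limma, adjusted p = 0.000181). TGFB2 entered the test through its wild-type values, and with a floor of mean plus 3 SD, 178.7, it was not tested. Since both ligands were read in the same samples, a factor applied to a whole sample cancels in their ratio. The log2 ratio of TGFB1 to TGFB2 ranged from 2.86 to 3.15 in wild-type and from 4.70 to 4.81 in mutant samples, and the ratio was at least 2.70-fold higher in the mutant line with TGFB2 held at the floor of the deposited scale.

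TGFBR2, the type II receptor that binds the ligand first, rose with TGFB1. It read 1110, 1130.0 and 1147 normalized counts in the wild-type samples and 1957, 1934 and 1903 in the mutant samples. The groups did not overlap and each varied by under 2%. The means were 1129 ± 18.5 and 1931 ± 26.9 (SD, n = 3 each), a log2 difference of 0.77 (SE 0.029, 95% interval 0.70 to 0.84) or 1.71-fold (limma, adjusted p = 1.15e-06). ACVR1C encodes ALK7, a type I receptor of the nodal and activin branch that phosphorylates SMAD2 and SMAD3. It had 206, 160.5 and 164 normalized counts in the wild-type samples and 229.8, 211 and 191 in the mutant samples. The wild-type sample numbered 1 lay above the lowest mutant sample, so the groups overlapped. The log2 difference of 0.25 (95% interval -0.031 to 0.54) did not pass (limma, adjusted p = 0.0836), and its coefficient of variation of 14.4% in wild-type cells was the highest of the tested members. With the replicate number as a block the adjusted p was 0.0131, and without wild-type replicate 1 it was 0.0116.

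**Figure D1:**
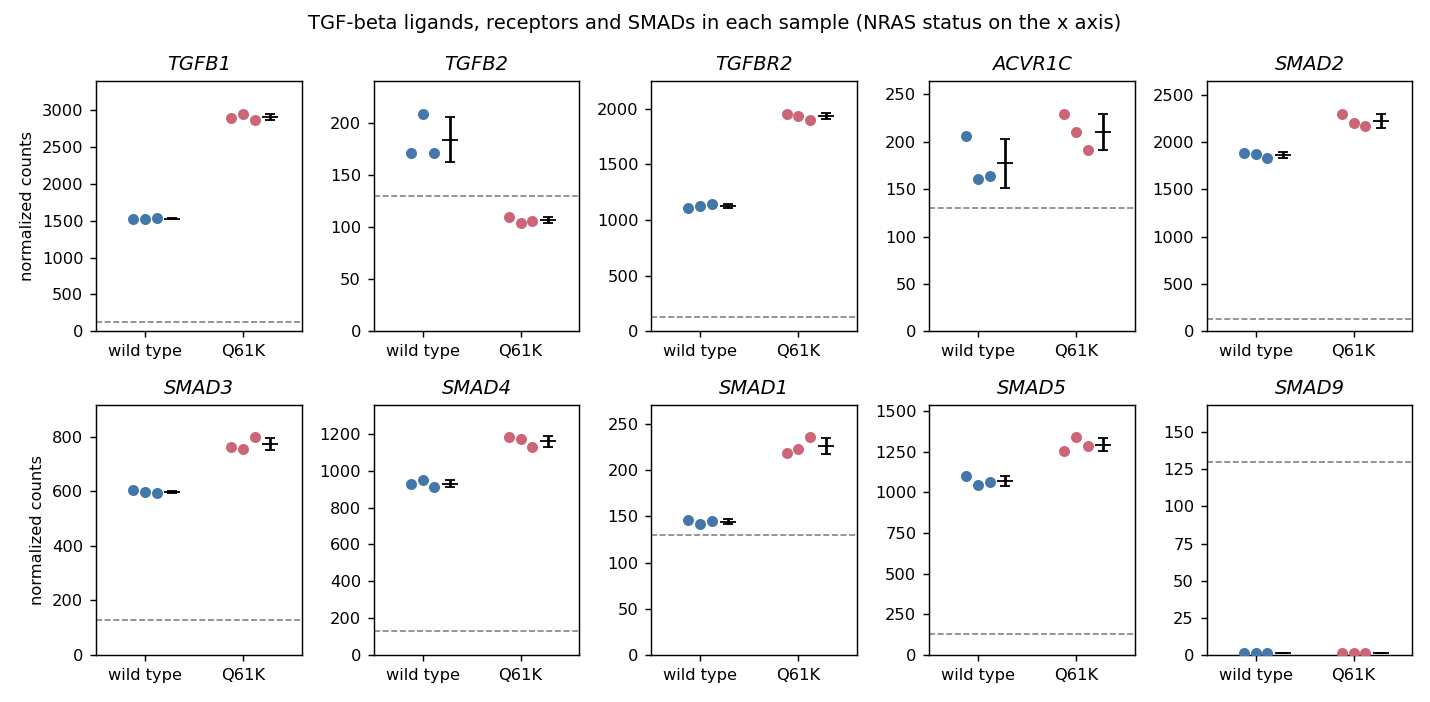
Normalized counts (y axis, linear, each from 0) of the 10 members in the 3 wild-type (blue) and 3 NRAS Q61K (red) samples, with mean and SD beside the points and the detection floor of 129.7 as a dashed line. TGFB1 and TGFBR2 are well separated upwards, TGFB2 falls below the floor in the mutant line, ACVR1C overlaps, and SMAD9 sits at the table's minimum.

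The SMADs that carry TGF-beta and activin signals rose by smaller amounts, close to the shift of the whole panel. SMAD2, a receptor-regulated transducer, read 1885, 1874 and 1826 normalized counts in wild-type and 2299, 2201 and 2165 in mutant samples. SMAD3, its close relative that binds DNA directly, read 603, 597 and 596 against 763, 756 and 798. SMAD4, the common partner, read 928, 953 and 913 against 1182, 1173 and 1128. In each of these genes every mutant sample was above every wild-type sample. The log2 differences were 0.25 ± 0.035 for SMAD2, 0.37 ± 0.032 for SMAD3 and 0.32 ± 0.034 for SMAD4 (SE, n = 3 each), or 1.19-fold, 1.29-fold and 1.25-fold (limma, adjusted p = 0.000588, 6.28e-05 and 0.000162). The median log2 difference of all 454 tested genes was 0.32, so these SMADs lay -0.07, 0.05 and -0.0027 from it.

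Among the SMADs of the bone morphogenetic protein branch, SMAD1 rose more than SMAD5, and SMAD9 was not detected. SMAD1 read 146, 142 and 146 normalized counts in wild-type samples, close to the floor, and 219, 223 and 236 in mutant samples. Its means of 144 ± 2.55 and 226 ± 8.61 (SD, n = 3 each) differed by 0.64 on the log2 scale (SE 0.038) or 1.56-fold (limma, adjusted p = 8.61e-06), which is 0.32 above the panel median. SMAD5 read 1103, 1042 and 1066 against 1256, 1338 and 1285, a log2 difference of 0.27 (SE 0.038) or 1.21-fold (limma, adjusted p = 0.000681). Both groups of SMAD1 and of SMAD5 values were apart, without overlap. SMAD9 was held at the table's minimum in all samples, at 1 in wild-type and 1.16, 1.11 and 1.12 in mutant samples, the latter being the minimum multiplied by each sample's scaling factor. It was not tested, and its level is known only to lie below the floor.

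In all, 9 of 10 members were tested, 7 were higher in NRAS Q61K cells, TGFB2 was lower and ACVR1C did not pass. Calls were common across the panel, where 62.1% of tested genes were higher, 20.9% were lower and 83.0% passed in either direction, against 77.8%, 11.1% and 88.9% of the tested members. The groups did not overlap for 8 of the 9, or 88.9%, and for 84.1% of all tested genes. The median log2 difference of the tested members was 0.32, as large as that of the panel, also with TGFB2 at its bound. The number of members called is therefore near the panel's background, and what sets members apart is how far each lies from the panel median.

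That median rests on the scaling between samples. The deposited scaling sets the geometric mean of 30 housekeeping genes equal, and its factors lay between 0.898 and 0.903 for the wild-type line and between 1.11 and 1.16 for the mutant line. Before this step SMAD4 stood at 1034, 1056 and 1016 counts in wild-type and 1018, 1057 and 1008 in mutant samples, which overlap. TGFB1 stood at 1701, 1692 and 1706 against 2495, 2663 and 2564 at that stage, which do not overlap. Under 4 other scalings (no sample factors, positive control probes, equal medians and quantiles), the number of members called higher was 3, 3, 3 and 2 and the number called lower 1, 1, 4 and 4. Over the whole panel 38.5%, 34.8%, 33.0% and 33.7% of tested genes were then higher and 35.2%, 30.6%, 45.4% and 45.2% lower. TGFB1 and TGFBR2 kept their higher call and TGFB2 its lower call. The log2 difference of TGFB1 ranged from 0.48 to 0.61 under these 4 and that of TGFBR2 from 0.32 to 0.46. A higher call under all 5 scalings was held by 31.5% of tested genes and a lower call by 20.9%. SMAD1 remained higher in value under all of them, with log2 differences of 0.16 to 0.33, and did not pass after quantile normalization (limma, adjusted p = 0.195). SMAD2, SMAD3, SMAD4 and SMAD5 lost their higher call under each of the 4. After equal medians SMAD2, SMAD4 and SMAD5 were called lower, by -0.20, -0.13 and -0.18 (limma, adjusted p = 0.000718, 0.0120 and 0.00986), and after quantile normalization by -0.17, -0.13 and -0.12 (0.000758, 0.00734 and 0.0459). SMAD3 did not pass under any of the 4. Whether the SMAD2, SMAD3, SMAD4 and SMAD5 transcripts rose, fell or stayed level per cell was thus not settled by these data, and in RNA from a bulk culture fewer cells that express a gene and less RNA per cell cannot be told apart.

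**Figure D2:**
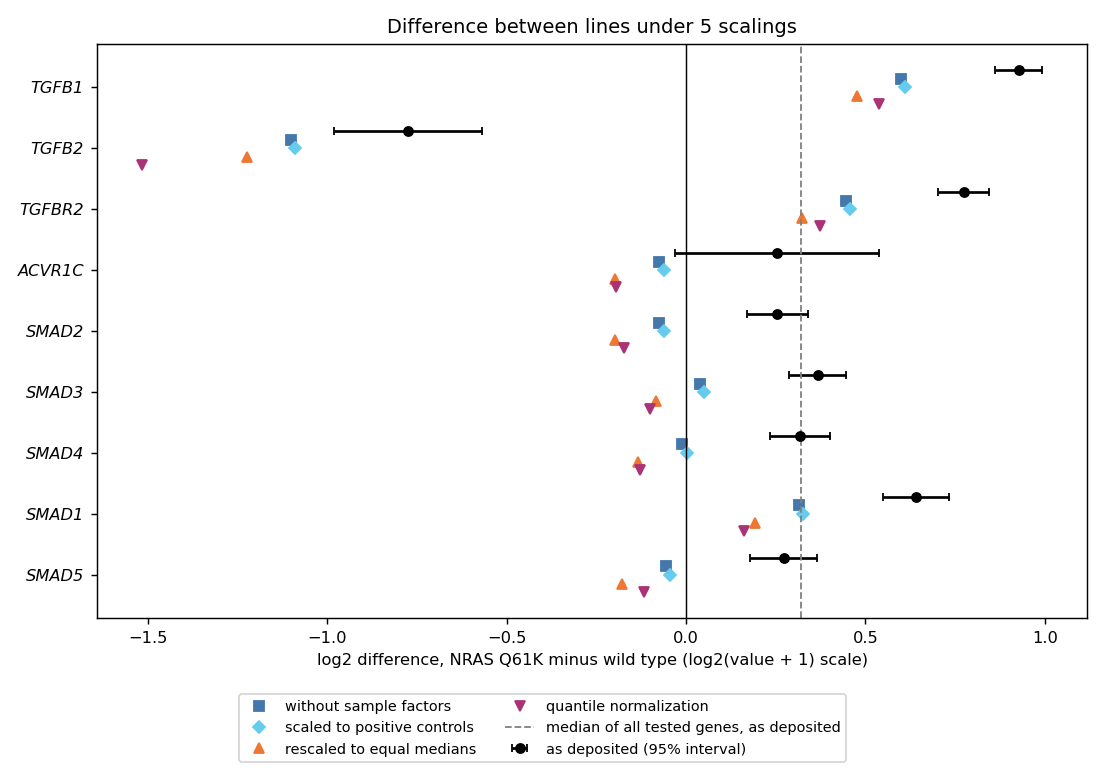
Log2 difference of NRAS Q61K minus wild type (x axis) for the 9 tested members under the deposited scaling, with its 95% interval, and under 4 other scalings. The dashed line is the median of all tested genes as deposited, 0.32. TGFB1, TGFBR2 and SMAD1 stay above 0 and TGFB2 below 0 under each scaling, SMAD2, SMAD4 and SMAD5 move to or below 0, SMAD3 lies on either side of 0, and the fitted TGFB2 value uses mutant counts under the floor.

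Ratios within a sample do not depend on the sample factors, since any factor applied to a whole sample cancels. A ratio to SMAD4 still moves with SMAD4, whose own change was not settled above. SMAD4 was taken as the denominator after its values were seen, because both SMAD branches use it. Relative to SMAD4, TGFB1 was 1.53-fold and TGFBR2 1.37-fold higher in mutant cells, and SMAD1 was 1.25-fold higher. TGFB2, held at the deposited floor, was at least 1.77-fold lower, a bound in which the sample factors do not cancel. None of these 4 ratios overlapped between the lines. The ratio of SMAD2 to SMAD4 was 1.04-fold lower, also without overlap, while those of SMAD3, SMAD5 and ACVR1C overlapped and differed by 1.03-fold, 1.03-fold and 1.05-fold. The exact permutation test (2-sided, 3 samples against 3) gave p = 0.1 for each of the 5 ratios without overlap, which is the smallest p it allows, and 0.16 after adjustment over the 8 ratios.

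**Figure D3:**
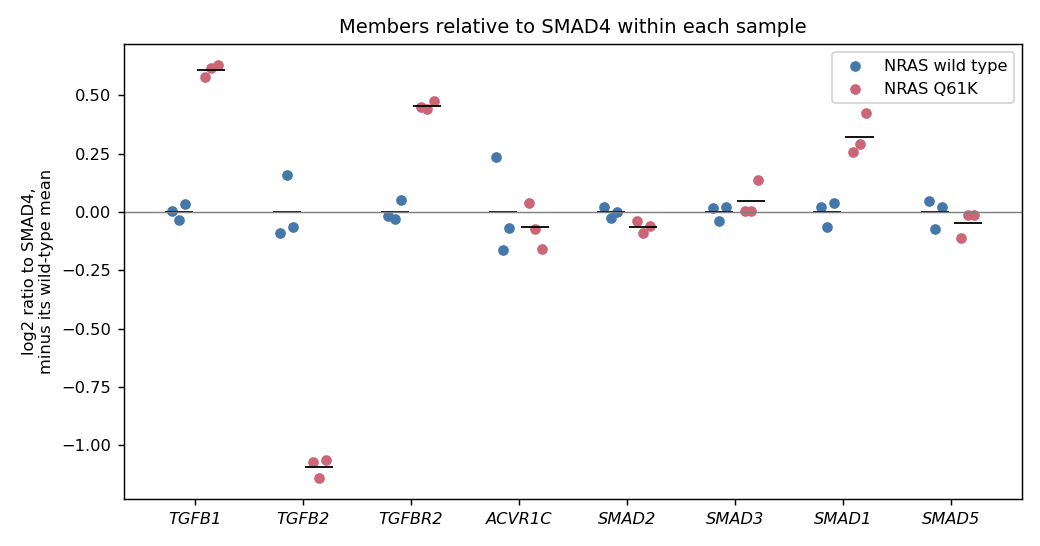
Log2 ratio of each member to SMAD4 in each sample, minus the mean of that ratio in wild-type samples (y axis), with wild-type samples in blue, NRAS Q61K samples in red and group means as black lines. TGFB1, TGFBR2 and SMAD1 lie above the wild-type samples and TGFB2 below them, while SMAD2, SMAD3, SMAD5 and ACVR1C lie near 0.

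Genes that control the ligands outside the cell went both ways. Of 20 such genes measured 16 were tested, 9 were higher and 3 lower (56.2% and 18.8%, against 62.1% and 20.9% of the panel), with a median log2 difference of 0.36 against 0.32 for the panel. THBS1, thrombospondin 1, which can activate latent TGF-beta, fell from 29313 ± 465 to 4596 ± 43.6 normalized counts, by 2.67 on the log2 scale (limma, adjusted p = 2.21e-08). ITGB3, an integrin subunit that pairs with the alpha-V chain and can bind the latent complex, rose from 1135.0 ± 22.2 to 6244 ± 294, by 2.46 on the log2 scale. ITGB8, the beta subunit of another integrin that activates latent TGF-beta, had 2719 ± 62.0 and 3312 ± 75.4, a rise of 0.28 as deposited, but it was called lower after equal medians and quantile normalization (-0.17 and -0.099, limma adjusted p = 0.00422 and 0.0109). ITGB6, from a further activating integrin, was at the minimum in both lines. The latent-complex protein LTBP4 had 491 ± 11.3 and 535 ± 49.8 and did not pass (limma, adjusted p = 0.152, or 0.0297 without mutant replicate 1), and it was called lower after equal medians and quantile normalization (-0.33 and -0.34, adjusted p = 0.0120 and 0.0117). Of the small proteoglycans that bind TGF-beta, BGN (biglycan) was at 1.86 and 556 ± 21.8, at least 4.28-fold higher, and DCN (decorin) was at 216 ± 6.68 and 255 ± 46.5 and did not pass (limma, adjusted p = 0.155, or 0.00824 without mutant replicate 3). NRP1, a co-receptor, was at 3904 ± 62.0 and 3992 ± 67.7 and did not pass, and was called lower under the other 4 scalings.

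Of 6 tested genes for related receptors and ligands, 4 were higher as deposited and GDF15 was lower (66.7% and 16.7%), near the 62.1% and 20.9% of the panel. ACVR1, a type I receptor that phosphorylates SMAD1 and SMAD5, went from 725 ± 23.8 to 1075 ± 27.2 normalized counts (log2 difference 0.57, limma adjusted p = 1.54e-05). BMPR1A, a type I receptor for bone morphogenetic proteins, had 741 ± 37.9 and 1015 ± 14.9 (0.45), and BMPR2, their type II receptor, had 117 ± 2.98 and 327 ± 9.70, at least 2.52-fold higher. INHBA, which encodes the activin A subunit, had 838 ± 31.0 and 1094 ± 64.1 (0.38), and TDGF1, the nodal co-receptor Cripto, had 197 ± 14.0 and 246 ± 40.0 and did not pass (limma, adjusted p = 0.0509, or 0.0117 without mutant replicate 2). ACVRL1, BMPR1B and NODAL were below the floor in both lines. Under the other 4 scalings BMPR1A and INHBA did not pass, and ACVR1 did not pass after quantile normalization (0.0997, limma adjusted p = 0.0872) and stood at 0.12 after equal medians (0.0369).

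All 11 measured intracellular modulators were tested, 6 were higher and 2 lower (54.5% and 18.2%, against 62.1% and 20.9% of the panel), with a median log2 difference of 0.18, below that of the panel. SMURF2, a ubiquitin ligase that targets SMADs and receptors for degradation, rose from 2794 ± 114 to 4926 ± 70.0 normalized counts, by 0.82 on the log2 scale (limma, adjusted p = 2.97e-06), and its relative SMURF1 had 475 ± 38.0 and 537 ± 38.4 and did not pass (adjusted p = 0.0741, or 0.0330 without wild-type replicate 1 and 0.0361 without mutant replicate 2). After equal medians and quantile normalization SMURF1 was called lower (-0.28 and -0.30, limma adjusted p = 0.00786 and 0.00653). ZFYVE9 (SARA), which presents SMAD2 and SMAD3 to the receptor, had 370.0 ± 27.8 and 459 ± 16.6 (0.31) and did not pass under the other 4 scalings. CAV1 (caveolin 1), which can bind the type I receptor in membrane caveolae, fell by 0.66, from 4067 ± 42.1 to 2578 ± 39.3. RBL1 (p107), a partner of SMAD3 in repressing MYC, fell by 0.31, from 1011 ± 24.3 to 814 ± 59.4. The factor SP1 and the coactivators EP300 and CREBBP, which SMADs work with at promoters, were higher by 0.60, 0.48 and 0.51 as deposited. None of these 3 passed after equal medians (0.15, 0.025 and 0.055, limma adjusted p = 0.0562, 0.608 and 0.444) or quantile normalization (adjusted p = 0.137, 0.446 and 0.328), and EP300 and CREBBP did not pass with positive controls (adjusted p = 0.202 and 0.122). After equal medians 1 of the 11 modulators, SMURF2, was higher and 6 were lower, while 33.0% of the panel's tested genes were higher and 45.4% lower.

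Genes known to be induced by TGF-beta in various cells were mostly higher. Of 30 genes examined 24 were tested, 18 were higher and 5 lower (75% and 20.8%, against 62.1% and 20.9% of the panel), and their median log2 difference was 0.94 against 0.32 for the panel. TGFBI, an adhesive matrix protein, had 4032 ± 93.0 and 16541 ± 52.8 normalized counts (a log2 difference of 2.04, limma adjusted p = 4.38e-08), FN1 (fibronectin) 572 ± 38.3 and 6186 ± 168 (3.43), TNC (tenascin C) 713 ± 27.0 and 4398 ± 139 (2.62), and the basement membrane collagens COL4A1 1383 ± 50.2 and 5505 ± 115 (1.99) and COL4A2 1395 ± 31.1 and 3783 ± 86.9 (1.44). All of these held a higher call under each of the 4 other scalings, as did 13 of the 24 tested genes in all. Over the panel 31.5% of tested genes held a higher call under all scalings. COL1A1, COL1A2 and COL3A1, the collagen genes that TGF-beta induces in fibroblasts, stayed below the floor in both lines. The 5 lower genes were ANGPTL4, VEGFA, CDKN1A, SNAI2 and PLAUR, with SNAI2 at least 1.20-fold lower and log2 differences of -2.65, -0.96, -0.62 and -0.18 for ANGPTL4, VEGFA, CDKN1A and PLAUR, and they stayed lower under the 4 other scalings. CDKN1A encodes the growth inhibitor p21, a cytostatic target of TGF-beta in epithelial cells, and ANGPTL4 a secreted inhibitor of lipoprotein lipase. The 2 tested genes that TGF-beta represses in epithelial cells were lower, ID1 at 7215 ± 135 and 5241 ± 97.2 and MYC at 773 ± 18.7 and 409.7 ± 57.2 (-0.46 and -0.92, limma adjusted p = 1.55e-05 and 0.000162). ID2 had 126 ± 16.1 and 36.6 ± 3.32, below the floor, and CDH1 was at the minimum in both lines. Many of these genes also respond to RAS, hypoxia and other signals, and the part that TGF-beta plays in their differences was not tested.

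**Figure D4:**
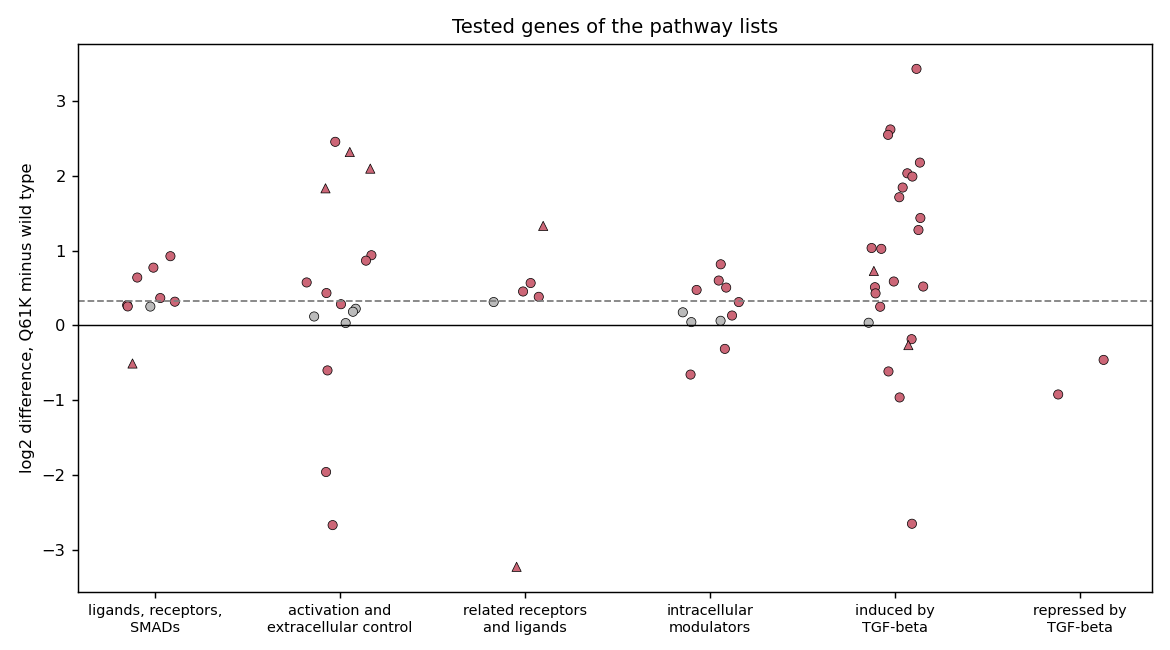
Log2 difference of NRAS Q61K minus wild type (y axis) for each tested gene of the family and of 5 pathway lists, in red where it passed (adjusted p under 0.05) and grey where it did not. Triangles are bounds for genes with 1 line below the floor, and the dashed line is the panel median of 0.32. The induced list reaches 3.43 for FN1, and genes drawn as bounds may lie further from 0.

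Markers of other cell types were counted beside these lists. Of 9 measured fibroblast and mural markers 1 was above the floor in wild-type and 4 in mutant samples, with a summed level of 615 to 645 and 1599 to 1841 normalized counts, and COL1A2 at the minimum. Of 7 endothelial markers 3 were above the floor in wild-type and 4 in mutant samples, with sums of 769 to 846 and 1033 to 1240. Of 3 leukocyte markers 1 was above it in wild-type and 2 in mutant samples, with sums of 276 to 374 and 353 to 435. PTPRC, the pan-leukocyte marker, was at the minimum, while ITGB2 averaged 219 and 251 and ITGAM 112 and 136. The fibroblast sum is carried by LUM and PDGFRB in mutant cells, at 463 and 686 normalized counts. The 5 measured melanoma markers summed to between 3439 and 3473 normalized counts in the wild-type line and between 9545 and 10020 in the mutant line. The part of any of these shifts in the differences above was not tested.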

How the data were processed

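Total RNA from the 2 lines, 3 samples each, was read on the nCounter panel, per the labels. The deposited values are a normalized signal, 1 value per gene and sample. The software is not given in the sources used here, so the steps were read from the deposited values. From each barcode count a background was taken off, the rest was scaled by a single factor for its sample, and 1 is the lowest value. Divided by these factors, 100% of values between 1.5 and 400 came out whole to within 0.03, once the background's fractional part was removed. The background's whole part cannot be read, so no count test was run.

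Groups and replicate numbers came from sample titles. The 30 housekeeping genes were taken from knowledge of the panel, and their geometric mean was 728 to 733 in every sample. The test of endogenous genes above the floor used limma 3.58.1 under R 4.3.3 (lmFit, eBayes) on log2(value + 1) and was 2-sided, with Benjamini-Hochberg adjustment over the 454 tested genes. A change passed at an adjusted p under 0.05. Folds on this scale understate changes of low genes. A fold is given as a bound, the higher mean over the floor, for genes that only 1 line expressed above it. The same floor served both lines, with no sample factor applied to it. The positive control probes were taken as not carrying the sample factors, and for the negative probes this was not checked. Each bound therefore holds at this floor and could be smaller at another. The fit was tested on simulated data, whose settings and outcome are not given here. In each list the first 8 measured genes in its written order are named, and other genes were named after their values were seen. One gene of the induced list is not reported here and was left out of that list's counts. The members and lists were chosen with earlier results of these data known. Samples of the same replicate number deviated together with r = 0.216, 0.053 and 0.066 across genes, and those of different numbers with r from -0.171 to 0.091. The labels do not say whether the numbers pair the samples. The main fit therefore used no replicate block, and the calls with a block are given below. The scalings, pseudocount, floor, variance trend, replicate block and each sample's omission were varied.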

Additional observations from a re-analysis of the deposited data

How the results depend on the processing

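The scaling between samples was the choice that moved most results. Of the 8 members called, 4 passed without the sample factors (3 higher) and 4 after scaling to the positive controls (3 higher), against 7 after equal medians (3 higher) and 6 after quantile normalization (2 higher). The factors' construction shows why the sign shifts, since equal medians took 0.451, no factors 0.329 and positive controls 0.316 from the log2 differences. The panel's calls were 282 higher and 95 lower as deposited, 175 and 160 without factors, 158 and 139 with positive controls, 150 and 206 after equal medians and 153 and 205 after quantile normalization. Log2 differences that turned negative without the factors were ACVR1C -0.075, SMAD2 -0.074, SMAD4 -0.011, SMAD5 -0.057, LTBP4 -0.21, ITGB8 -0.045, NRP1 -0.30, DCN -0.10, TDGF1 -0.015, SMURF1 -0.15 and ZFYVE9 -0.016. With positive controls they were ACVR1C -0.062, SMAD2 -0.062, SMAD5 -0.044, LTBP4 -0.20, ITGB8 -0.032, NRP1 -0.28, DCN -0.092, TDGF1 -0.0022, SMURF1 -0.14 and ZFYVE9 -0.0031. After equal medians they were ACVR1C -0.20, SMAD2 -0.20, SMAD3 -0.085, SMAD4 -0.13, SMAD5 -0.18, LTBP4 -0.33, ITGB8 -0.17, NRP1 -0.42, DCN -0.23, TDGF1 -0.14, INHBA -0.068, SMURF1 -0.28 and ZFYVE9 -0.14. After quantile normalization they were ACVR1C -0.20, SMAD2 -0.17, SMAD3 -0.10, SMAD4 -0.13, SMAD5 -0.12, LTBP4 -0.34, ITGB8 -0.099, NRP1 -0.40, DCN -0.23, BMPR1A -0.025, TDGF1 -0.13, INHBA -0.075, SMURF1 -0.30 and ZFYVE9 -0.085.

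Pseudocounts of 10 and 50, the variance trend, the other floors and the omission of single samples reversed none of the named genes. They took no call from one, except that a floor of mean plus 3 SD, 178.7, left TGFB2 and SNAI2 untested. They gained a call for TDGF1 (both pseudocounts, the floor at 3 SD, the trend) and SMURF1 (the trend), and single omissions gained ACVR1C, LTBP4, DCN, TDGF1 and SMURF1. Leaving out each sample gave 8 to 9 members called, at least 352 panel genes and 49 to 53 of 59 tested pathway genes (50 with all samples). The 9 members came without wild-type replicate 1, with ACVR1C. With the replicate block, 9 members, 392 panel genes and 52 pathway genes were called, with ACVR1C, TDGF1 and SMURF1 as the named genes gained, and no other call of a named gene changed. With no floor, SMAD9 was called higher (limma, adjusted p = 0.0104) through the scaled minimum alone.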
